A study of Glycine soja with 14 samples.

Results

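The step from 0.5 h to 1 h of bicarbonate treatment was followed in young leaves of Glycine soja, the wild relative of soybean, by setting the 2 arrays of 1 h against the 2 arrays of 0.5 h. These are 4 of the 14 Affymetrix soybean arrays of a time course with 7 times. All 14 arrays carried the line G07256, grown hydroponically in dilute Hoagland's solution to 21 days under a 12 h light period. For the treatment, seedlings were moved into the same kind of solution with 50 mM NaHCO3 at pH 8.5, and each array held leaf RNA pooled from 3 plants. The labels call the replicates independent biological ones. Of the 61170 probe sets on the array, the 37593 designed to soybean were tested, and the rest were kept only to set a background. No untreated array was taken at 0.5 h or at 1 h, so the time in bicarbonate, the time since transfer and the hour of the day cannot be told apart in this step. In whole leaf, fewer cells of a type and less RNA per cell cannot be told apart either.

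Bicarbonate in the root medium raises the pH around the root, lowers the solubility of iron, phosphate and other nutrients, and adds a sodium load. The leaf receives this first as a signal through the xylem, and rapid leaf responses to such signals include changes in calcium signalling, in transcription factors of the WRKY, MYB, NAC and bZIP families, and in the hormones that set growth. Ribosomal proteins, the chlorophyll pathway, acetyl-CoA carboxylase and cell wall enzymes belong to the growth programme of a young leaf, while pathogenesis-related proteins and many WRKY factors belong to its defence and wound programme.

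Levels are given as scaled intensities: each array's deposited values were multiplied so that the soybean probe sets had a median of 56.4 on every array. Changes are differences of log2(scaled intensity + 16), 1 h minus 0.5 h, with the standard error (SE) from limma, and a probe set is said to have risen or fallen only with an adjusted p under 0.05 over all 37593 probe sets. The constant of 16 makes the fold of a dim gene smaller than the ratio of its intensities. A probe set counts as above background on an array when it exceeds the 95th percentile of the 23350 probe sets designed to Phytophthora sojae and Heterodera glycines, organisms not in the sample.

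The tissue label was checked first. The 5 leaf markers, for a light-harvesting protein, a photosystem I subunit, a cytochrome b6f subunit and rubisco activases, were above background on all 4 arrays. Their summed level was 33806 and 33593 on the 0.5 h arrays and 33919 and 33702 on the 1 h arrays. Of 12 nodule markers only 1 was above background on all 4 arrays, and of 11 seed markers none was. The sums of both times lay within the same narrow range.

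Several array-wide values moved with the step. The probe set for 18S ribosomal RNA read 62.5 and 25.4 at 0.5 h and 141 and 136 at 1 h, and the ribosomal RNA probe set soybean_rRNA_808 read 297 and 133 at 0.5 h and 825 and 1131 at 1 h. The bacterial bioB transcript that is added to every hybridisation read 211 and 201 at 0.5 h and 523 and 658 at 1 h, a ratio of means of 2.86, and the ratios for bioC, bioD and cre were 2.43, 2.40 and 1.35. The background lay between 17.51 and 17.95 on the 0.5 h arrays and between 22.8 and 28.6 on the 1 h arrays, and the share of soybean probe sets above it was 74.8% to 75.4% at 0.5 h and 66.1% to 70.7% at 1 h. The ratio of the 3' to the 5' actin probe set, a sign of RNA integrity, was 3.19 and 2.76 at 0.5 h and 2.86 and 1.87 at 1 h. The part of these shifts in the results that follow was not tested. Replicates correlated at r = 0.985 at 0.5 h and r = 0.975 at 1 h over the soybean probe sets, values that describe genes within pairs of arrays and not independent observations.

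Within this step 896 soybean probe sets rose, 2.38% of those tested, and 514 fell, 1.37%. Together these are 1410 calls, or 3.75%. Calls that rose did so by 0.51 to 3.52 on the log2 scale, with a median of 0.92, and those that fell changed by -2.99 to -0.51, with a median of -0.87. Changes of at least 2-fold were called for 528 probe sets, 1.4%: 362 rose, 0.963%, and 166 fell, 0.442%. The median change of all soybean probe sets was 0.02. The excess of rises depends on the scaling: 63.5% of the calls were rises with the median scaling, 57.9% with quantile normalization, and 40.2% when the deposited values were used without scaling, with 630 rises and 939 falls. The 2 arrays of each time did not overlap for 21789 probe sets, 58% of those tested, so the lack of overlap alone marks no gene in this step.

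**Figure D1:**
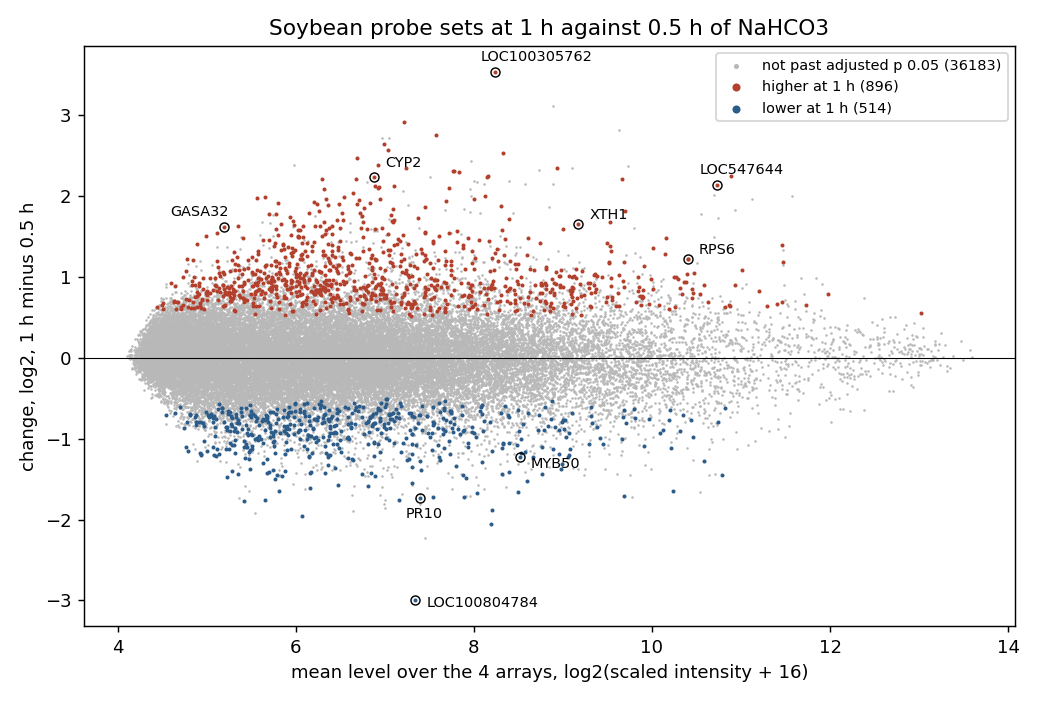
Each point is 1 soybean probe set, with its mean level over the 4 arrays on the horizontal axis, as log2(scaled intensity + 16), and its log2 change from 0.5 h to 1 h on the vertical axis. The 896 probe sets that rose are red and the 514 that fell are blue, and the rises reach 3.52 while 1 fall, LOC100804784, stands apart at -2.99.

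A single symbol is paired with 8677 of the soybean probe sets, and these represent 6029 genes, each read from its brightest probe set. Of these genes 209 rose, 3.47%, and 66 fell, 1.09%. Among the 1003 genes with a name rather than a LOC number, 24 rose, 2.39%, and 12 fell, 1.2%. Probe sets with no symbol were called in 888 of 28546 cases, 3.11%. Of the 275 called genes 90 have more than 1 probe set: a further probe set was called the same way in 22 of them and the opposite way in 2. Of the genes 204, 3.38%, rose and passed the filters for naming, above background on both arrays of a time and no overlap between times, and 65, 1.08%, fell and passed them.

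The 12 genes with the largest rises gained between 1.75 and 3.52 on the log2 scale, and 11 of them carry only a LOC number, for which no role is given here. LOC100305762 read 113 and 46.0 at 0.5 h and 826 and 1238 at 1 h. Its 1 h arrays were each several times above both 0.5 h arrays, a rise of 3.52 ± 0.36 (SE, adjusted p = 0.00113). It had read 2765 and 2737 before treatment, so 1 h was still below the starting level, and it read 4562 and 5061 at 6 h. Its 2 other probe sets, both below background on all 4 arrays, did not pass the test. The ribosomal RNA probe set soybean_rRNA_808 took values of the same order on the same arrays: 3062 and 3031 before treatment, 297 and 133 at 0.5 h, 825 and 1131 at 1 h, and 5990 and 7432 at 6 h. Whether the 2 probe sets measure related RNA was not tested.

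CYP2, a cyclophilin and so a peptidyl-prolyl isomerase that assists protein folding, was the only gene with a name among the 12. Its level was 40.3 and 36.5 at 0.5 h and 230 and 247 at 1 h. Both 1 h arrays lay near the untreated arrays, at 280 and 241, and the 0.5 h arrays lay far below all of these. The rise was 2.23 ± 0.24 (SE, adjusted p = 0.00149), or 4.68-fold on the scale used.

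LOC100795507 read 90.8 and 81.4 at 0.5 h against 396 and 448 at 1 h, a rise of 2.1 ± 0.20 (SE, adjusted p = 0.000875). LOC100500331 read 25.8 and 24.3 against 147 and 141, a rise of 1.96 ± 0.17 (SE, adjusted p = 0.000717). LOC100777334 read 35.1 and 31.8 against 140 and 170, and its rise of 1.79 ± 0.14 had the smallest adjusted p among the genes, 0.000514. In these 3 genes the replicates of a time lay close together and far from the other time, and the 1 h levels overlapped or lay above the untreated ones (414 and 380, 120 and 140, and 130 and 144). LOC100306620 rose by 1.95 and LOC100799248 by 1.94 with like agreement. LOC100791908, LOC100800784, LOC100813342 and LOC100527598 rose by 2.12, 2.04, 1.79 and 1.75.

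LOC547644 shows how far probe sets of 1 gene can part. Its brightest probe set read 1372 and 460 at 0.5 h and 3542 and 3555 at 1 h, a rise of 2.13 ± 0.35 (SE, adjusted p = 0.0124). A second probe set of LOC547644 fell by 0.54 on the log2 scale (adjusted p = 0.0471), and the other 2 did not pass the test. The direction for this gene is therefore uncertain.

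The largest rises without a symbol that passed the same filters were those of 2 probe sets. GmaAffx.89562.1.S1_at read 44.7 and 27.1 at 0.5 h and 322 and 283 at 1 h, a rise of 2.64 ± 0.20 (SE, adjusted p = 0.000514). Gma.15781.1.A1_at read 36.5 and 20.8 at 0.5 h and 166 and 307 at 1 h, a rise of 2.46 ± 0.58 (SE, adjusted p = 0.0433). The first returned to its untreated level of 276 and 285. The untreated arrays of the second stood far apart, at 63.2 and 393.

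Most rises began from a low point at 0.5 h. Among the 896 probe sets that rose, 0.5 h had the lowest mean of the 7 times in 609, or 68.0%, against 14.6% of all soybean probe sets, and 1 h had the highest mean in 59.0%. Among the 514 that fell, 0.5 h had the highest mean in 330, or 64.2%, against 12.6% of all, and 1 h had the lowest in 53.1%. These shares are a description without a test, because a probe set chosen for a rise between these times is more often low at the first of them.

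**Figure D2:**
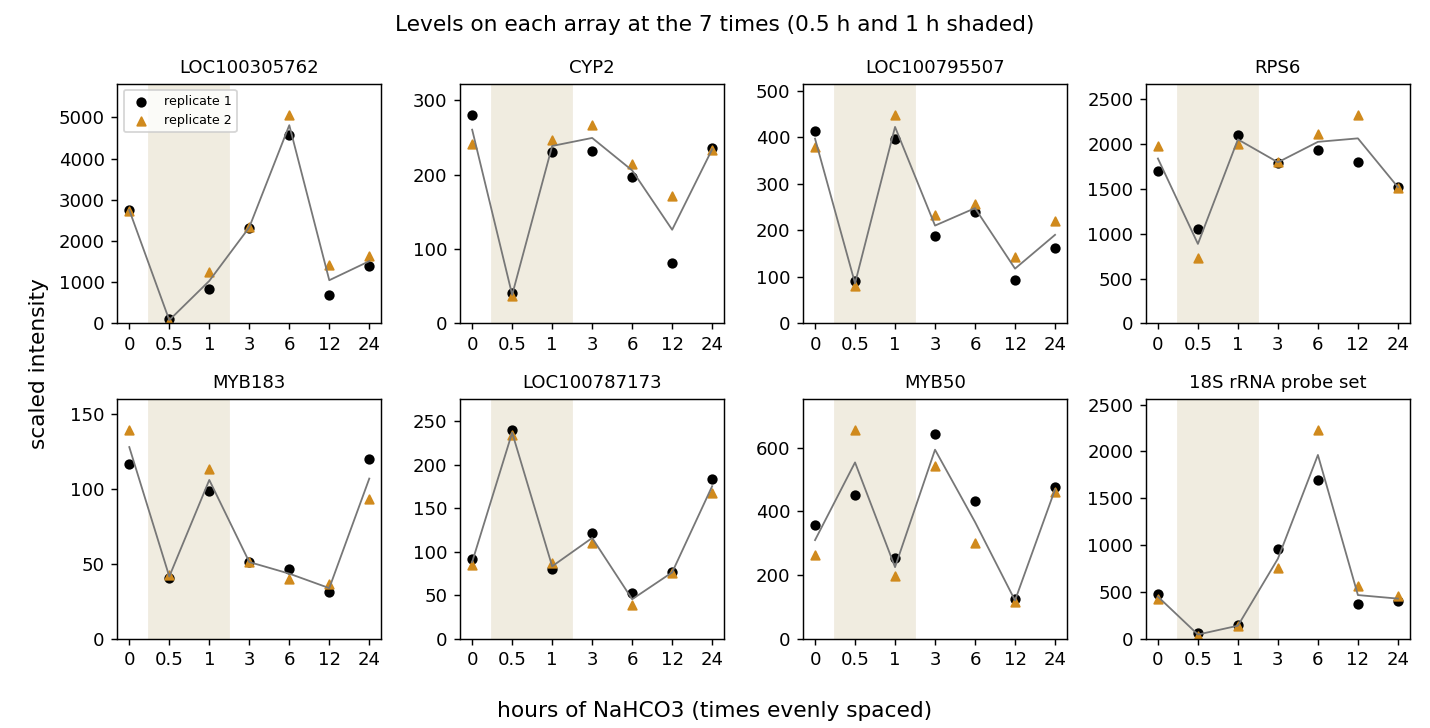
Scaled intensity (vertical axis, from 0, its own range in each panel) on each array at the 7 times (horizontal axis, hours, evenly spaced) for 7 genes and the 18S ribosomal RNA probe set. Black circles are replicate 1, orange triangles replicate 2 and lines join the means. CYP2, LOC100795507, RPS6 and MYB183 are low at 0.5 h and back near their 0 h level at 1 h, LOC100787173 and MYB50 are high at 0.5 h, and the 18S probe set is at its lowest at 0.5 h.

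Translation had the highest share of calls among the gene lists, but its list was put back after values had been seen, so this rank is no test. Of 6 genes for ribosomal proteins and elongation factors, 3 rose and none fell, 50% called against 4.56% of all genes. The median change was 0.60 against 0.03 over all genes. RPS6, a protein of the small ribosomal subunit, read 1049 and 726 at 0.5 h and 2101 and 2007 at 1 h. Both 1 h arrays were well above both 0.5 h arrays, a rise of 1.22 ± 0.18 (SE, adjusted p = 0.00797), and 2 of its 4 probe sets rose. The other 2 had values of -0.18 and -0.41 in the opposite direction (adjusted p = 0.643 and 0.407). RPS13, also of the small subunit, read 1173 and 942 against 1895 and 1784 and rose by 0.80 ± 0.16 (SE, adjusted p = 0.0263). RPL2, of the large subunit, read 662 and 551 against 1005 and 895, and its rise of 0.64 ± 0.16 lay at the threshold (adjusted p = 0.05 after rounding from below). RPL37 and the elongation factor TEFS1 had values of 0.57 and 0.50 that did not pass, and EF1BGAMMA4 had -0.02. The RPL2 call was lost with quantile normalization, with median centring and without scaling, which left 2 rises. With a constant of 1 there was 1 rise, and with only the 4 arrays compared there was none. When 1 array was left out, the change of RPS6 ran from 0.96 to 1.48. The 18S probe set rose on the same arrays, as given above.

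Among plastid genes, 3 of 18 for photosynthesis and chlorophyll synthesis rose and none fell, 16.7% called against 4.56% of all genes. RCA11, a rubisco activase that keeps the carbon-fixing enzyme open for catalysis, read 469 and 406 at 0.5 h and 713 and 788 at 1 h, a rise of 0.76 ± 0.16 (SE, adjusted p = 0.0311). HEMB, the 5-aminolevulinate dehydratase early in tetrapyrrole synthesis, read 730 and 744 against 1086 and 1243 and rose by 0.65 ± 0.15 (SE, adjusted p = 0.0406). CPX, the coproporphyrinogen oxidase later in the same pathway, read 1355 and 1125 against 1926 and 2084 and rose by 0.69 ± 0.16 (SE, adjusted p = 0.0416). The list median was 0.04, and the members that did not pass ran from -0.65 to 1.02. The abundant CAB3, a light-harvesting protein picked as an example, read 12296 and 12423 against 12328 and 12554. The 5 leaf markers, rubisco activases among them, had values from -0.10 to 0.11, and none passed. The CPX and HEMB calls were lost with quantile normalization and without scaling. With a constant of 1 or with only the 4 arrays compared, no gene of the list passed.

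Acetyl-CoA carboxylase makes the malonyl-CoA from which plastids build fatty acids. Its 5 genes were put together after their values had been seen, so their count has no weight as a test. All 5 had higher means at 1 h, with a median of 0.51, and 2 rose. ACCB-1, a biotin carrier subunit, read 142 and 153 at 0.5 h and 251 and 305 at 1 h, a rise of 0.84 ± 0.18 (SE, adjusted p = 0.0325). ACCC-3, a biotin carboxylase subunit, read 265 and 209 against 426 and 448, a rise of 0.85 ± 0.20 (SE, adjusted p = 0.0413) that was lost without scaling.

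For growth and the cell wall, 2 of 11 genes rose and none fell, 18.2% called against 4.56% of all genes. The list median was 0.64. With only the 4 arrays compared, no gene of the list passed. XTH1, a xyloglucan endotransglucosylase that cuts and rejoins wall polymers, read 394 and 243 at 0.5 h and 965 and 1050 at 1 h. The rise of 1.65 ± 0.40 (SE, adjusted p = 0.0459) was lost with quantile normalization and without scaling. Its untreated arrays stood far apart, at 474 and 1266. ADR12, a transcript known from soybean as lowered by auxin, read 32.6 and 43.7 against 89.2 and 87.9 and rose by 0.96 ± 0.18 (SE, adjusted p = 0.0235). Members of the same list pointed both ways: ADR11 had a value of 1.96 (adjusted p = 0.0516) and XET1 had -1.42 (adjusted p = 0.455), neither past the test.

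GASA32, of a family of small gibberellin-regulated peptides, was the only 1 of 23 gibberellin and cytokinin genes to rise, 4.35% called against 4.56% of all genes. It was below background on both 0.5 h arrays, at 4.82 and 4.95, and read 36 and 63.1 at 1 h, a rise of at least 1.90-fold (adjusted p = 0.0198). Its second probe set was below background at both times. The GASA family did not move as a whole: GASA3 had the highest value, 2.81, with 0.5 h arrays that read 589 and 132, and missed the threshold (adjusted p = 0.101), while GASA24 had -0.99 (adjusted p = 0.176). GASA3 and GASA24 were picked after their values were seen.

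The cyclophilin list gave 2 rises among 12 genes and no fall, 16.7% called against 4.56% of all genes, with a median of 0.21. Beside CYP2, CYP34 read 773 and 626 at 0.5 h and 1148 and 1109 at 1 h, a rise of 0.69 ± 0.16 (SE, adjusted p = 0.0402) that was lost without scaling. Only this 1 of the 4 probe sets of CYP34 passed. The others had values of 0.05, 0.03 and 0.74 (adjusted p = 0.873, 0.939 and 0.162), so the rise of this gene is uncertain. The difference in size between the 2 genes was not tested. None of 8 heat shock proteins and endoplasmic chaperones passed. The lowest p among them was that of BIP2, an endoplasmic reticulum chaperone, which read 50.6 and 47.7 against 90.2 and 103 (0.78 ± 0.25, adjusted p = 0.0904).

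Other named genes that rose were single members of their groups. GER10, a germin-like protein of the cell wall space, read 2024 and 1465 at 0.5 h and 4740 and 4321 at 1 h, a rise of 1.39 ± 0.32 (SE, adjusted p = 0.0416) that was lost with quantile normalization. COPE2, the epsilon subunit of the coatomer that coats Golgi vesicles, read 144 and 131 against 256 and 275 and rose by 0.88 ± 0.18 (SE, adjusted p = 0.0321). SGF14f, 1 of 8 genes for 14-3-3 proteins, which bind phosphorylated partners, read 127 and 110 against 201 and 274 and rose by 0.90 ± 0.20 (SE, adjusted p = 0.0401). The SGF14f call was lost without scaling.

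CHI1B1, a chalcone isomerase of flavonoid synthesis, was the only 1 of 40 phenylpropanoid genes to pass, 2.5% called against 4.56% of all genes. It read 25.8 and 27.6 at 0.5 h and 69.1 and 64.1 at 1 h, a rise of 0.95 ± 0.22 (SE, adjusted p = 0.0413) that was lost without scaling. Only this 1 of the 4 probe sets of CHI1B1 passed, and the others had values of 0.48, -0.32 and 0.03. SIP1-3, a small basic aquaporin, read 22.2 and 29.5 against 51.4 and 60.1 and rose by 0.78 ± 0.16 (SE, adjusted p = 0.0295). It was the only 1 of 19 aquaporins to pass, 5.26% called against 4.56% of all genes. A higher mean at 1 h was seen in 15 of the 19, with a median of 0.23 against 0.03 over all genes. This leaning was not tested. PPC1, a phosphoenolpyruvate carboxylase, was below background on both 0.5 h arrays, at 10.2 and 7.72, and above it on 1 of the 1 h arrays, which read 27.0 and 27.8. It rose by at least 1.29-fold (adjusted p = 0.0307) against the 0.5 h background of 17.51 to 17.95. The 1 h background was higher, 22.8 to 28.6, and the part of that shift in this rise was not tested. PPC1 was the only 1 of 26 genes for phosphate and phosphoenolpyruvate metabolism to rise, 3.85% called against 4.56% of all genes.

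**Figure D3:**
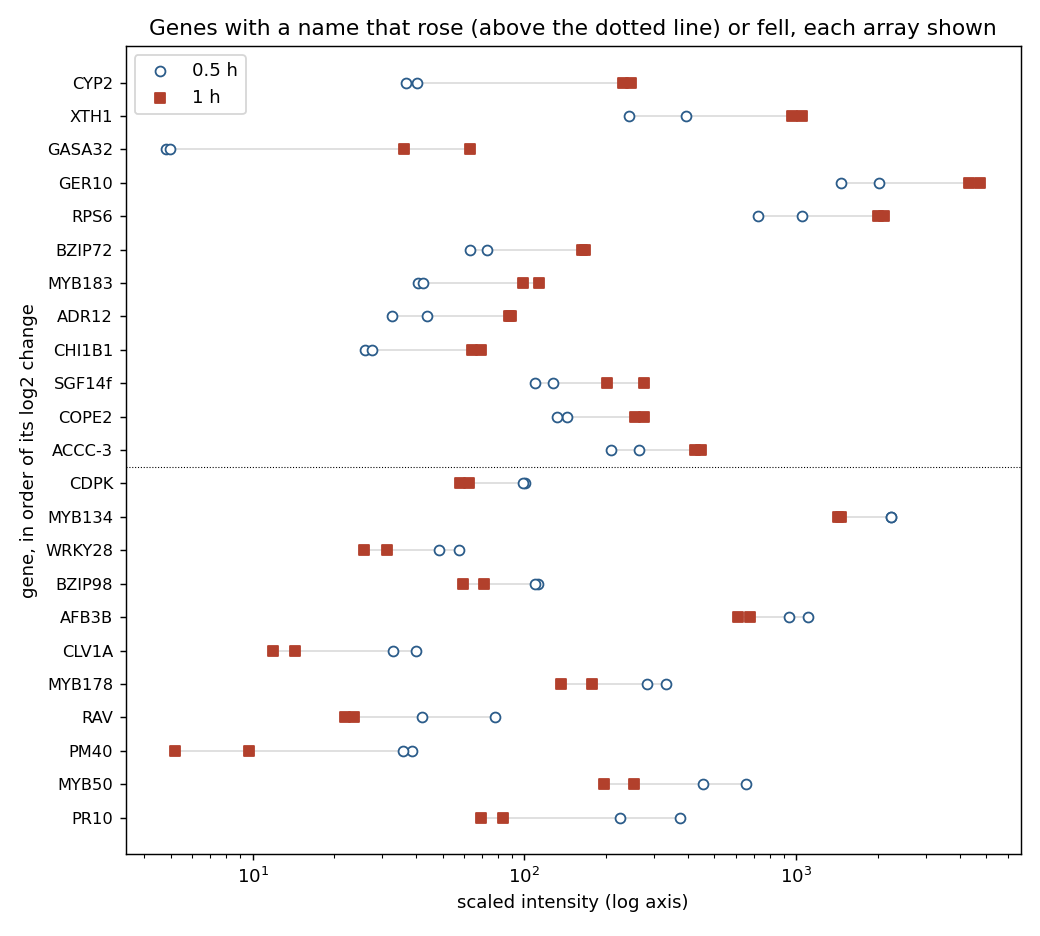
Scaled intensity (horizontal log axis) of the 12 named genes with the largest rises and the 11 named genes that fell and passed the naming filters (vertical axis, in order of change). Open blue circles are the 2 arrays of 0.5 h and red squares the 2 arrays of 1 h. In each gene the circles and squares do not overlap, which the naming filters required.

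Transcription factors gave more falls than rises: of 232 genes on the lists 2 rose and 7 fell, 3.88% called, with a median of -0.12. That share lies at the background of 4.56% of all genes and 3.59% of named genes. The whole set of 1003 named genes had 24 rises and 12 falls, and the difference between these splits was not tested. Whether falls outnumbered rises depended on which array was left out. The excess of falls was lost without either array of 1 h, without replicate 2 of 0.5 h, and without any 1 array of 6 h or of 24 h. It was kept without replicate 1 of 0.5 h and without any 1 array of 0 h, 3 h or 12 h. The count was 2 rises and 6 falls with quantile normalization, 2 and 5 with median centring, and 2 and 8 with a constant of 64. Without scaling it was 2 rises and 10 falls. It was 2 rises and 3 falls with all probe sets of the array, and 1 and 2 with a constant of 1. With only the 4 arrays compared it was 2 rises and 1 fall, and at a threshold of 0.01 it was 1 rise and no fall.

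In the MYB family, 1 of 65 genes rose and 3 fell, 6.15% called against 4.56% of all genes. MYB183 read 40.7 and 42.3 at 0.5 h and 98.5 and 113 at 1 h, a rise of 1.08 ± 0.15 (SE, adjusted p = 0.0052) that brought it near its untreated 117 and 139. By 3 h it was back at 51.1 and 51.2. MYB50 read 453 and 656 against 254 and 196, a fall of 1.23 ± 0.23 on the log2 scale (adjusted p = 0.0207), and by 3 h it read 644 and 544. These 2 genes turned in opposite directions at 1 h and again at 3 h. MYB178 fell by 0.91 and MYB134 by 0.63 on the log2 scale, from 283 and 332 to 177 and 137, and from 2230 and 2242 to 1457 and 1425. Both probe sets of MYB178 fell.

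Of 59 bZIP factors 1 rose and 1 fell, 3.39% called against 4.56% of all genes. BZIP72 read 63.0 and 72.7 at 0.5 h and 163 and 167 at 1 h, a rise of 1.11 ± 0.22 (SE, adjusted p = 0.0248), and 1 h was its highest mean of the 7 times. BZIP98 read 113 and 109 against 71.2 and 59.5, a fall of 0.65 ± 0.15 on the log2 scale (adjusted p = 0.0412). RAV, a factor with AP2 and B3 domains, read 42.0 and 77.9 at 0.5 h and was below background on both 1 h arrays, a fall of at least 1.77-fold (adjusted p = 0.0496). The RAV call was lost with quantile normalization and with median centring, and its other 2 probe sets did not pass.

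WRKY factors, known from the response to pathogens and wounding, gave no rise and 2 falls among 52 genes, 3.85% called, with a median of -0.22. Without replicate 1 of 1 h there were 2 rises and no fall, and without replicate 2 of 0.5 h or of 1 h there was no call. WRKY28 read 48.5 and 57.5 at 0.5 h and 25.6 and 31.2 at 1 h, a fall of 0.64 ± 0.14 on the log2 scale (adjusted p = 0.038). The other call, WRKY55 (adjusted p = 0.0436), read 15.9 and 33.6 at 0.5 h, above background on 1 of these arrays, and 1.71 and 3.31 at 1 h, below background on both. It allows no fold, lies outside the naming filters and is given because it completes the count. None of 15 NAC genes passed, although 12 had a lower mean at 1 h, a leaning that was not tested. The median over all genes was 0.03 and that of the NAC genes -0.32. That median was -0.93, with 2 falls, without replicate 1 of 0.5 h and -0.05 without replicate 2 of 0.5 h. NAC51 came nearest, at 50.0 and 76.4 against 28.4 and 26.4 (-0.85 ± 0.24, adjusted p = 0.0728).

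In these families the 0.5 h replicates differed strongly for single genes. WRKY27 read 91.4 on replicate 1 and 423 on replicate 2 of 0.5 h, against 66.3 and 46.5 at 1 h. NAC018 read 299 and 831 against 197 and 197, and ERD15, a dehydration-induced gene, read 287 and 697 against 242 and 490. None of the 3 passed the test, and they were picked after their values were seen. Over all calls the same array stood on the far side: replicate 2 of 0.5 h was the lower of its pair for 678 of the 896 probe sets that rose, 75.7%, and the higher for 380 of the 514 that fell, 73.9%, against 51.9% lower and 48.1% higher over all soybean probe sets.

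Of 60 signalling genes 1 rose and 2 fell, 5% against 4.56% of all genes. Of 11 calcium genes only CDPK, a calcium-dependent protein kinase, passed: it read 101 and 99.1 at 0.5 h and 62.5 and 58.1 at 1 h, a fall of 0.61 ± 0.14 on the log2 scale (adjusted p = 0.0414). The calmodulins SCAM-1 and SCAM-2 had values of 0.51 and 0.54 (adjusted p = 0.074 and 0.0818). Of 16 receptor-like kinases CLV1A, a relative of the CLAVATA1 receptor that limits stem cell number in Arabidopsis, fell. It read 32.8 and 39.8 at 0.5 h and was below background at 1 h, a fall of at least 1.25-fold (adjusted p = 0.0156). AFB3B, an F-box protein of the auxin receptor family, read 940 and 1107 against 675 and 613 and fell by 0.65 on the log2 scale (adjusted p = 0.0417). It was the only 1 of 11 ethylene and auxin genes to pass, 9.09% called against 4.56% of all genes. The second probe set of AFB3B had a value of 0.28 in the opposite direction.

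PR10, a pathogenesis-related protein, had the largest fall of any gene with a name. It read 225 and 374 at 0.5 h and 83.7 and 69.5 at 1 h, a fall of 1.73 ± 0.39 on the log2 scale (adjusted p = 0.0401). The other 18 pathogenesis and defence genes did not pass, so 5.26% of that list was called against 4.56% of all genes. PM40, known from soybean as a seed maturation transcript, read 38.5 and 35.7 at 0.5 h and was below background at 1 h, a fall of at least 1.28-fold (adjusted p = 0.00996). The Kunitz inhibitor KTI-3 missed the test on its brightest probe set, at 1038 and 660 against 510 and 407 (-0.84 ± 0.23, adjusted p = 0.0658), while its second probe set fell by 1.19 on the log2 scale (adjusted p = 0.0369).

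Among genes with LOC numbers, LOC100804784 had the largest fall, 2.99 ± 0.71 on the log2 scale (adjusted p = 0.0438). It read 178 and 1064 at 0.5 h and 21.3 and 72.7 at 1 h, so its size rests mostly on replicate 2 of 0.5 h, without which the adjusted p was 0.33. LOC100787173 was the opposite case: it read 240 and 234 at 0.5 h and 79.7 and 86.8 at 1 h, a fall of 1.35 ± 0.14 on the log2 scale (adjusted p = 0.00125). Before treatment it read 91.6 and 84.8, so only the 0.5 h arrays were high among these 3 times.

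LOC100818380 fell by 1.70 on the log2 scale, from 1106 and 1946 to 445 and 434, and LOC100795866 fell by 1.53, from 475 and 859 to 237 and 188. LOC100526935, LOC100779783, LOC100791398 and LOC547884 fell by 1.44, 1.27, 1.27 and 1.22. In all 6 genes replicate 2 of 0.5 h was the higher of its pair. The direction for LOC547884 is uncertain, because 2 of its other probe sets had values of 0.75 and 0.53 in the opposite direction (adjusted p = 0.0509 and 0.104). LOC100527259 and LOC547660 were below background on both 1 h arrays and fell by at least 2.02-fold and at least 1.66-fold, and both probe sets of LOC547660 fell. Without a symbol, GmaAffx.21678.1.S1_at read 51.2 and 76.9 at 0.5 h and fell below background, by at least 1.90-fold (adjusted p = 0.00493), and Gma.8195.2.S1_a_at fell by 1.76 on the log2 scale, from 152 and 400 to 65.9 and 58.0.

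No gene passed in 19 of the 36 lists of functional groups. Across the 36 lists 17 of 648 genes rose and 11 fell, 4.32% called, against 4.56% of all genes and 3.59% of genes with a name, so the lists as a whole lay at the background. The lists without a call covered heat shock factors, mitogen-activated and WNK kinases, SnRK2 kinases with zeaxanthin epoxidase, light, flowering and clock genes, jasmonate synthesis, nitrogen and sulphur assimilation, membrane lipid desaturation, ion and sugar transport, glutathione transferases, antioxidant enzymes, glyoxalases with aldehyde dehydrogenases, proline and polyamines, proteinase inhibitors, cytochromes P450 and the stress-induced cell death genes, beside the heat shock proteins and NAC factors given above.

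The members nearest to a call in these lists give the size of what did not pass. FAD3B, an omega-3 desaturase of membrane lipids, read 128 and 108 at 0.5 h and 251 and 353 at 1 h (1.24 ± 0.32, adjusted p = 0.0554). CYP82C1, a cytochrome P450, read 156 and 166 against 72.6 and 90.8 (-0.87 ± 0.24, adjusted p = 0.0641). P5CR, the last enzyme of proline synthesis, read 77.8 and 66.2 against 99.6 and 114 (0.48 ± 0.14, adjusted p = 0.0807). In these 3 genes the times did not overlap, as in 61.8% of all genes.

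The remaining members nearest to a call lay further from the threshold. HSF-30 had a value of 0.64, BFT, of the family of flowering-time proteins, -0.87, GLYII-6, a glyoxalase, -0.70, and CAT1, a catalase, -0.52, with adjusted p between 0.0892 and 0.098. WNK1, NRP-B of the cell death pathway, GSTU62, OAS-TL3 of cysteine synthesis and LOXB1 had values of -0.42, -0.66, -1.07, -0.58 and -0.36, with adjusted p between 0.121 and 0.146. ZEP, the zeaxanthin epoxidase of abscisic acid synthesis, GDH2, HMA8 and SWEET17 had -0.58, 0.53, -0.75 and -0.49, with adjusted p between 0.166 and 0.264. Of the 4 probe sets of LOXB1, a lipoxygenase, 1 that is not the brightest rose by 1.34 (adjusted p = 0.00175), so this gene is uncertain.

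**Figure D4:**
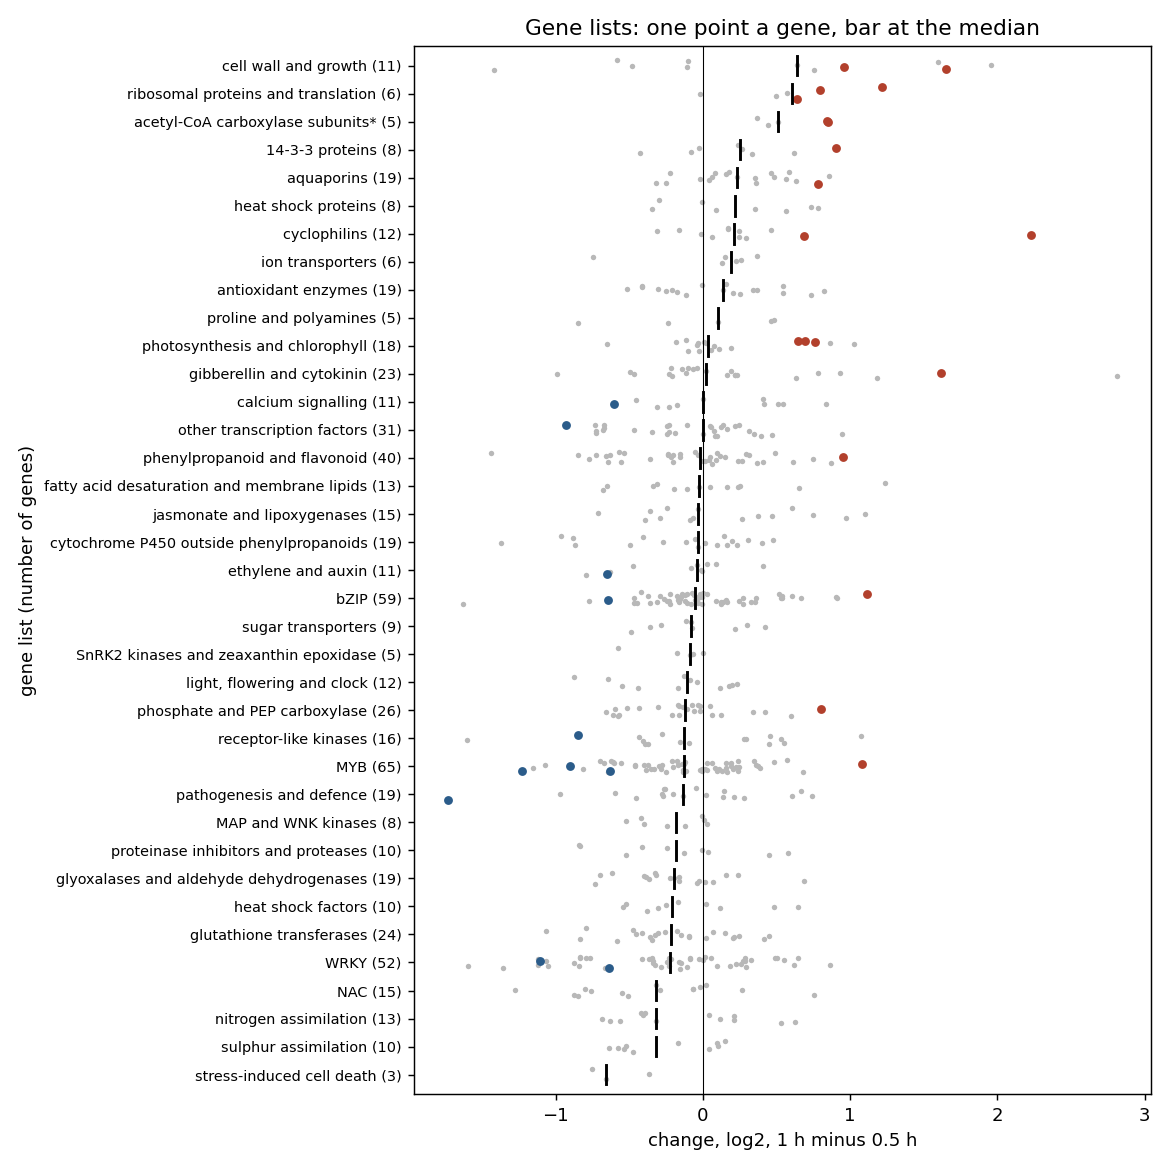
Log2 change from 0.5 h to 1 h (horizontal axis) of each gene of 36 lists of functional groups and of the acetyl-CoA carboxylase list, marked with an asterisk because it was made after values were seen (vertical axis, number of genes in brackets, ordered by median). Red and blue points rose and fell, grey points did not pass, and bars are medians, which run from -0.66 for the 3 cell death genes to 0.64 for cell wall and growth.

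How much of this holds without each array differs between genes. Of the 57 calls among the named genes and probe sets, 10 held when each of the 14 arrays was left out in turn: the rises of LOC100305762, CYP2, LOC100791908, LOC100795507, LOC100500331, LOC100306620, LOC100799248, LOC100777334 and GmaAffx.89562.1.S1_at, and the fall of LOC100787173. Leaving out an array of a time other than 0.5 h or 1 h changes only the spread. Either array of such a time gives the same fit. The same 10 held under every other setting tried, a threshold of 0.01 included. The relation of these 10 calls to the array-wide shifts given above was not tested. Leaving out replicate 2 of 0.5 h ended 46 of the 57 calls and cut all calls from 1410 to 76, and leaving out replicate 2 of 1 h ended 46 and left 128. Without replicate 1 of 0.5 h there were 491 calls, and without replicate 1 of 1 h there were 519. The 1 array left at a time is then assumed to vary like the other groups. CYP2 was the only listed gene that rose or fell in each of these 4 fits. Of the calls without replicate 2 of 0.5 h, 92.1% were rises.

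**Figure D5:**
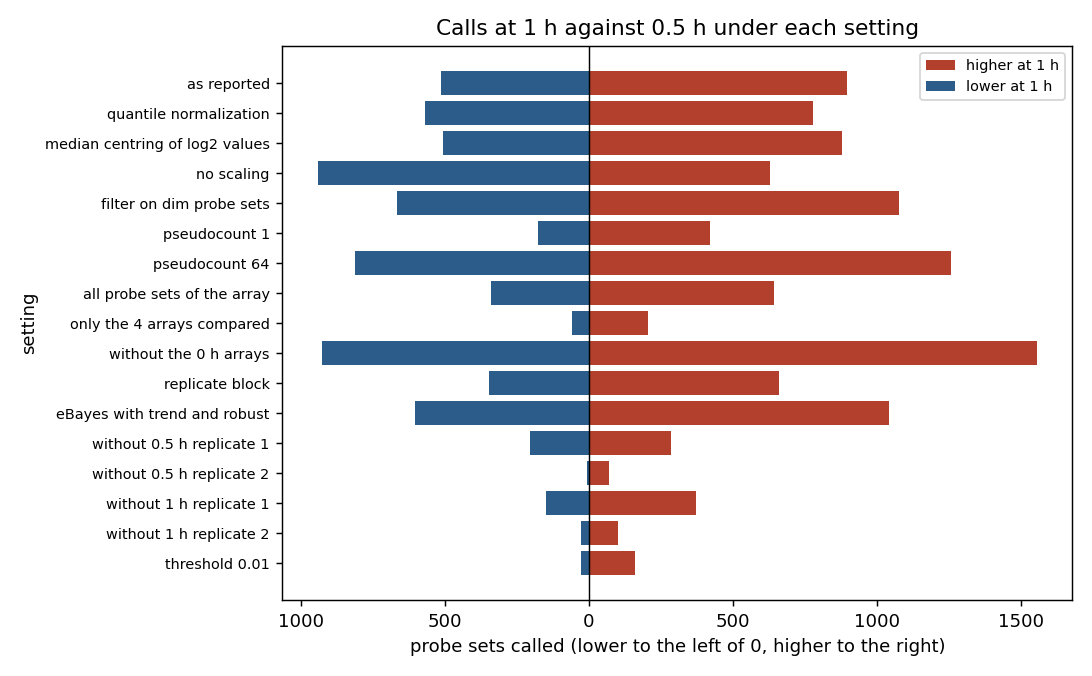
Number of soybean probe sets that rose (red, to the right of 0) and fell (blue, to the left) from 0.5 h to 1 h (horizontal axis) in the reported fit and under each setting (vertical axis). Rises outnumber falls in every setting shown except without scaling, and the bars without replicate 2 of 0.5 h, at 70 and 6, are the shortest.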

How the data were processed

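Leaf RNA of 14 samples (7 times, 2 replicates each, grouped by the labels) was hybridised to Affymetrix soybean arrays. The deposited table holds linear intensities, 1 for each probe set on each array, between 0.92 and 12812; how they were normalized or summarised is not given in the sources used here, and 227 control and ribosomal RNA probe sets were kept apart. Each array was scaled to a soybean median of 56.4, 16 was added and log2 taken. limma 3.58.1 in R 4.3.3 fitted the 7 group means over all 14 arrays (7 residual and 4.24 prior degrees of freedom), and the contrast of 1 h against 0.5 h was tested two-sided with Benjamini-Hochberg adjustment. Only the spread, not the contrast, uses the other times. The number of arrays limits the precision. In simulated data with 37593 probe sets and independent noise, 50 probe sets above background were changed at each of 4 sizes. Of changes of 0.5, 1, 2 and 3 on the log2 scale, 4%, 58%, 90% and 90% were recovered, with 7 false calls. The simulation held no array-wide shift and far fewer changed probe sets than the 1410 called here, so its rates need not hold for these data.

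Symbols come from the platform annotation, which can be old; 370 soybean probe sets with several symbols and 28546 with none were left unnamed, and 0 of the Entrez identifiers matched the RefSeq table of Glycine soja (ASM419377v2), so no sequence or position is given. Genes named are the 12 largest rises and 12 largest falls that passed the test, were above background on both arrays of a time and did not overlap, the same among genes with names, up to 4 per list by the same filters or else the member with the lowest p, and 2 probe sets without symbol in each direction. Where a group was not above background on any array, the bound ("at least") sets the mean of the brighter group against the background of the dimmer arrays, both as log2(scaled intensity + 16). The members and lists were chosen with earlier results of these data known; the lists were rewritten as explicit symbols once the annotation was at hand, the translation list was restored and the acetyl-CoA carboxylase list made after values were seen. Alternatives were another scaling, constant, dim filter, probe set choice, array set, variance model, replicate block and threshold.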

Additional observations from a re-analysis of the deposited data

Results flagged for a closer look

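Signals in probe sets outside the tested soybean set differed between the times. The 18S ribosomal RNA probe set had a mean scaled intensity of 44 ± 26.3 (SD, n = 2) at 0.5 h and 138 ± 3.58 (SD, n = 2) at 1 h, above every level at 0.5 h. Of 24 ribosomal RNA probe sets, 21 were above background on some of the 4 arrays, and 14 of them were higher at 1 h past the threshold in a limma fit of all probe sets, with none lower.

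The bioB control, a transcript added to the hybridisation mixture, had a mean of 206 ± 7.13 (SD, n = 2) at 0.5 h and 590 ± 95.8 (SD, n = 2) at 1 h. At the other 5 times its levels ran from 274 to 775, so 0.5 h held its lowest values.

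Among the 23350 probe sets of Phytophthora sojae and Heterodera glycines, 117 were higher and 4 lower at 1 h in the same fit, 0.518% called, with a median change of 0.14 on the log2 scale. The same fit called 2.61% of the soybean probe sets. The part of these 3 shifts in the soybean calls was not tested.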

How the results depend on the processing

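Counts of calls moved with the settings, and the balance of rises and falls turned when scaling was left out. The reported 1410 calls, 896 higher and 514 lower, became 598, 420 and 178 with a constant of 1; 2070, 1257 and 813 with 64; 981, 643 and 338 with all probe sets of the array; 267, 207 and 60 with only the 4 arrays compared; 2483, 1555 and 928 without the 0 h arrays; and 185, 159 and 26 at a threshold of 0.01. Without scaling 939 were lower and 630 higher, the only setting with more falls than rises. Leaving out 1 array at a time gave 76 to 2483 calls, 70 to 1555 higher and 6 to 928 lower; without an array of 24 h there were 700 and without an array of 6 h 824. The 528 calls of at least 2-fold became 173 with a constant of 64, 267 with only the 4 arrays, 175 at 0.01, and 76 to 699 over the arrays left out. With the replicate block there were 1009 calls, 661 higher and 348 lower; the replicate differences of 0.5 h and 1 h correlated at 0.19, and over the 21 pairs of times at -0.219 to 0.226 with 4 above 0.1, so equal numbers do not mark paired samples. Quantile normalization (1348), median centring (1384), a dim filter (1743) and a trended, robust variance (1645) kept the counts within 1.5 times. Over the named genes no direction reversed; under the alternatives 448 values fell short of the threshold, 11 newly passed it and 1516 stayed on their side, and the constant of 1 ended 31 of the 57 named calls. Changes of 0.5 on the log2 scale were mostly missed in the simulation. Its rates need not hold for these data, so small changes may be undercounted, which was not tested.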

Other observations

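The calls were unevenly spread over the naming series of the probe sets. Of 3013 probe sets with a GmaAffx number of 88000 or above, 8.60% rose and 1.66% fell, against 1.52% and 1.33% of those with a lower GmaAffx number and 2.26% and 1.35% of those of the Gma series. The high-numbered series is 8.01% of the soybean probe sets and held 28.9% of the rises. Among the calls that held without each array, it includes CYP2, LOC100791908, LOC100795507, LOC100500331, LOC100306620, LOC100777334 and GmaAffx.89562.1.S1_at. LOC100305762, LOC100799248 and LOC100787173 lie outside it. The boundary of 88000 was chosen after the values were seen, no test was made, and what sets these probe sets apart was not tested.

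Calls also varied with the mean level. With the probe sets cut into 10 equal bins by mean level, 0.505% were called in the dimmest bin and 5.85% in the brightest. Rises made up 76.8% of the calls in the brightest bin and 84.2% in the dimmest, with 16 rises and 3 falls, against 54.3% to 67.1% in the other 8.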
